A study of Mus musculus with 4 samples.

Results

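Receptors by which macrophages take up lipid, lipoprotein and debris were examined in mouse macrophages exposed to necrotic fat. The panel held 9 genes, Cd36, Msr1, Marco, Scarb1, Scarb2, Cd68, Stab1, Lrp1 and Vldlr, taken by symbol from the 17013 genes of the deposited table, and all 9 were found and passed the filter on low values. They were measured by bulk RNA sequencing in wild-type mouse bone marrow macrophages, differentiated in M-CSF and kept for 24 h on porous inserts with artificial necrotic bone fluid (aNBF), with 2 libraries per medium. The control group (Con) had in the lower well the middle layer of freeze-thawed abdominal fat, and the high-fat group (Fat) had the fat-rich top layer of the same kind of preparation. Both groups therefore received aNBF and material from necrotic fat, and they differed in the layer. The design compares Fat with Con to ask what fat uptake does to macrophage gene expression in a necrotic setting. The sources used here do not say whether the libraries of a group came from separate mice or cultures, so p-values measure the spread between these libraries, which may be technical.

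Scavenger receptors bind modified lipoproteins, dying cells and microbes and carry them into the cell, and most of them are not shut down as the cell fills with cholesterol. Macrophages that keep taking up lipid in this way become foam cells. The receptors fall into structural classes. Class A receptors such as Msr1 and Marco are trimers with a collagen-like stalk. Class B receptors (Cd36, Scarb1 and Scarb2) cross the membrane at both ends and form a tunnel for lipid. Cd68 is the mucin-like class D receptor, which sits mostly in late endosomes and lysosomes, and Stab1 is a class H receptor with many EGF-like and fasciclin domains. Lrp1 and Vldlr belong to the LDL receptor family, which bind apolipoprotein E-bearing particles.

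Marco and Msr1 were lower in Fat and Scarb2 was higher, and the other 6 receptors did not pass the test (limma on log2(CPM + 0.1), adjusted p under 0.05 over all 12470 genes tested). CPM is the number of reads scaled by library size, and pairs of library values are given below in the order of replicate 1 and replicate 2. Thus 3 of the 9 receptors were called, against 9% of all genes tested, with 1 called higher (background 3.99%) and 2 called lower (background 5%). The libraries of Fat and Con did not overlap for 6 of the 9 receptors, 4 of them higher and 2 lower in Fat, where 55.6% of all genes tested did not overlap (29.4% higher and 26.2% lower), so this count was near the background. The median log2 fold change of the 9 was 0.11, against 0.01 over all genes tested.

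The libraries held between 33573852 and 40785872 reads, a total worked out from the smallest step of each CPM column. A single read corresponded to 0.0244 to 0.0295 CPM. All 9 receptors were far above 3 reads in each library, the lowest being Vldlr with 71 to 87 reads. In a search of annotated transcripts, Stab1 alone shared stretches of 75 bases with another gene (38 of 11176 stretches, with Nt5dc2, whose exons overlap it on the other strand), and the other 8 receptors shared none. In bulk RNA, fewer cells of a type and less RNA per cell cannot be told apart.

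The promoter sequences of the called receptors and of Cd36, the most abundant receptor, are given here because the members of the panel moved in opposite directions. Promoter sequences from RefSeq were matched for 7 of the 9 receptors, and those of Msr1 and Scarb1 were not analysed here. Each line gives the 250 bases before the annotated gene start, 5′ to 3′ on the strand of the gene, in the GRCm38.p6 build, whereas the labels name GRCm39 for the reads. The windows are chr1:120505025-120505274 on the minus strand for Marco, chr5:17835897-17836146 on the minus strand for Cd36, and chr5:92505658-92505907 on the minus strand for Scarb2. Capitals mark matches, on either strand, to 7 short motifs.
Marco: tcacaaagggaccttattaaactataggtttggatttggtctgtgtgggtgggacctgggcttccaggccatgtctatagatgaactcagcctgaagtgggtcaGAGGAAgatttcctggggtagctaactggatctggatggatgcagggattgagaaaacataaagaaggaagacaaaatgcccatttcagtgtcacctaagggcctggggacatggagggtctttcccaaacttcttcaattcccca
Cd36: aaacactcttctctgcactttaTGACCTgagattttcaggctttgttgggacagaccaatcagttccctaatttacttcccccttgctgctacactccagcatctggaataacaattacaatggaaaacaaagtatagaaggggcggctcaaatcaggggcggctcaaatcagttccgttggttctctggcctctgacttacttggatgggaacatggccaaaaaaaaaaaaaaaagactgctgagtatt
Scarb2: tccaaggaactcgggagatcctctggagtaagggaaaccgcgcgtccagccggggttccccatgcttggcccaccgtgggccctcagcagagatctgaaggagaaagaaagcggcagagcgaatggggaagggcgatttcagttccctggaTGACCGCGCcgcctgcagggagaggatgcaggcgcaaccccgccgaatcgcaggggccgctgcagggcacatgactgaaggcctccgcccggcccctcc

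The Marco window held GAGGAA, the core bound by the myeloid factor PU.1, from base -146 to base -141, a motif found in 23.3% of the 32851 promoter windows of the same length. The Cd36 window held AGGTCA on the opposite strand (printed as TGACCT), the hexamer bound by nuclear receptors, from base -228 to base -223, and 14% of windows held it. In the Scarb2 window TGACNNNGC, the core of the antioxidant element bound by NRF2, lay from base -99 to base -91, and 10.2% of windows held it. The other motifs searched, on both strands and allowing overlaps, were CACGTG (E-box of TFEB and its relatives, 6.02% of windows), TTCNNNGAA (STAT site, 7.02%), TGANTCA (AP-1 site, 6.75%) and GAAANNGAA (interferon response element core, 7.13%), and these letters were not in the 3 windows shown. Windows not shown also held motifs of the search, with GAGGAA in Cd68, Stab1 and Vldlr, TGACNNNGC and TTCNNNGAA in Lrp1, and TGANTCA in Cd68. None of these receptors was called by limma. The motifs were chosen after the expression values had been seen, and a match is a description of the letters only.

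Level per transcript length placed the 9 receptors in the same order in all 4 libraries. On the TPM scale, which corrects for length, Cd36 came first, at 5396 ± 382 TPM in Con and 7062 ± 100.2 TPM in Fat (SD, n = 2 each). Cd68 followed at 1401 ± 91.8 TPM in Con and 1527 ± 35.9 TPM in Fat, then Msr1 at 404.1 ± 5.30 and 318.4 ± 39.1 TPM. Below these the plot of levels per length shows Scarb2, Stab1, Lrp1, Scarb1 and Marco, and Vldlr was last at 0.583 ± 0.065 TPM in Con and 0.537 ± 0.0411 TPM in Fat. Each receptor's lowest library lay above the highest library of the next receptor, within Con and within Fat. The closest neighbours were Stab1 and Lrp1, whose mean TPM differed 1.22-fold in Con and 1.20-fold in Fat. Msr1 and Scarb2, which moved in opposite directions, stood 2.17-fold apart in Con and 1.34-fold apart in Fat.

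**Figure D1:**
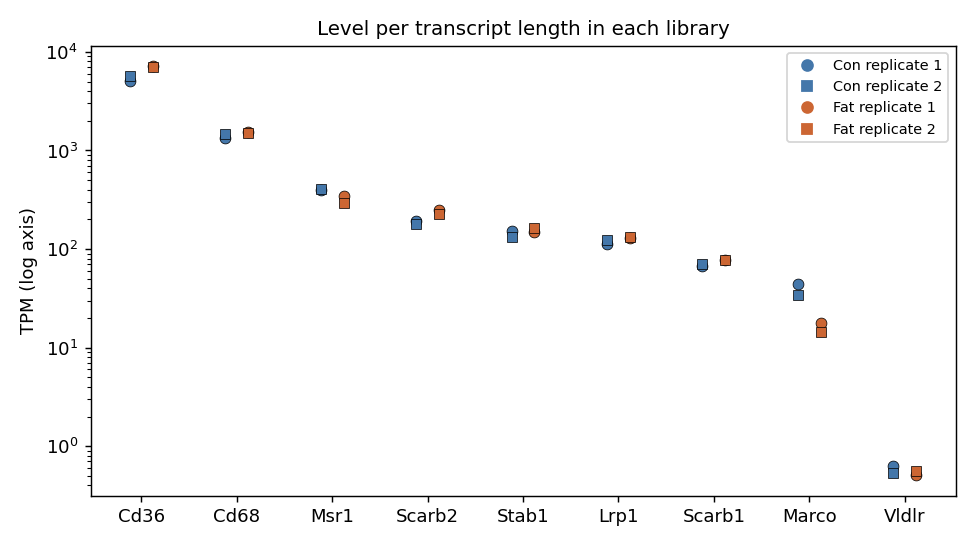
Level of each receptor in TPM (y axis, log scale) in each of the 4 libraries, with Con in blue, Fat in orange, circles for replicate 1 and squares for replicate 2. The order from Cd36 to Vldlr was the same in every library, and Marco stood closer to Scarb1 in Con than in Fat.

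Among the class A receptors, Marco, which binds bacteria, unopsonised particles and modified lipoproteins, had the largest change of the panel. It was at 40.4 and 31.9 CPM in Con against 15.8 and 13.0 CPM in Fat. Both Fat libraries lay below both Con libraries, and the gap was wider than the spread within either group. Marco fell by 60.0% (log2 fold change -1.32, standard error 0.13, 95% interval -1.63 to -1.01, limma adjusted p = 0.00348). Its reads numbered 1371 and 1198 in Con and 588 and 533 in Fat. With one variance prior for all genes in place of limma's trend, its adjusted p was 0.0831.

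Msr1, also called scavenger receptor A, takes up acetylated and oxidised LDL and is a classical receptor of foam cell formation. Its values were 731.5 and 759.8 CPM in Con against 624.4 and 525.0 CPM in Fat. The groups did not overlap, and the Fat replicates differed from each other by more than the Con replicates did. Msr1 fell by 23.2% (log2 fold change -0.38, standard error 0.09, 95% interval -0.59 to -0.18, adjusted p = 0.0391). This call rests on both second replicates, since the log2 fold change was -0.26 without Fat replicate 2 (adjusted p = 0.176) and -0.35 without Con replicate 2 (adjusted p = 0.0586). The TPM values gave -0.35 with an adjusted p of 0.0768.

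Marco made up a smaller part of the summed message of Msr1 and Marco in Fat. Of the summed TPM of Msr1 and Marco, Marco held 10.02% and 7.80% in Con replicates 1 and 2 and 4.84% and 4.75% in Fat replicates 1 and 2. Per length, Msr1 stood 8.98-fold and 11.8-fold above Marco in the Con libraries and 19.7-fold and 20.1-fold above it in the Fat libraries.

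**Figure D2:**
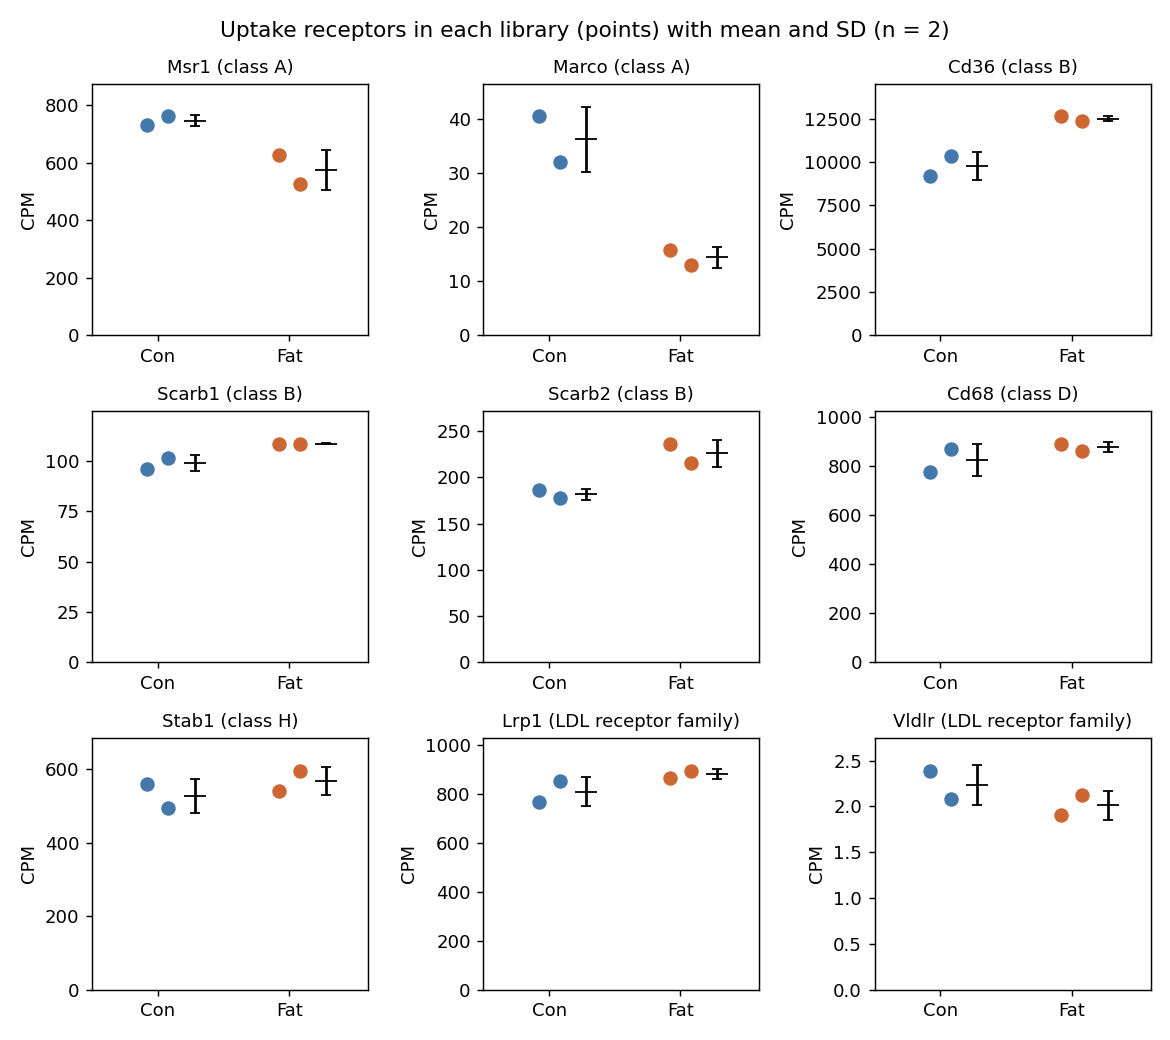
CPM of the 9 receptors (y axes start at 0) in the 2 Con libraries (blue) and 2 Fat libraries (orange), with the mean and SD of each group as a black bar beside the points. Marco lay at 13.0 to 15.8 CPM in Fat and 31.9 to 40.4 CPM in Con, while the points of Cd68, Stab1 and Vldlr overlapped between the media.

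All 3 class B receptors had both Fat libraries above both Con libraries, as did 29.4% of all genes tested. Scarb2 was the only class B receptor called. Scarb2 encodes LIMP-2, a lysosomal membrane protein that carries an enzyme to the lysosome and can pass cholesterol across its membrane. It was at 185.8 and 177.6 CPM in Con against 236.2 and 215.6 CPM in Fat. The lower Fat library lay well above the higher Con library. Scarb2 rose by 24.3% (log2 fold change 0.31, standard error 0.06, 95% interval 0.17 to 0.46, limma adjusted p = 0.0255). The call was lost without Con replicate 2 (log2 fold change 0.28, adjusted p = 0.0509) and without Fat replicate 1 (0.25, adjusted p = 0.0939).

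Cd36, the fatty acid translocase that binds oxidised LDL and long-chain fatty acids, held most of the panel's reads. It was at 9199 and 10370 CPM in Con against 12638 and 12398 CPM in Fat. Both Fat libraries were above both Con libraries, and the Con libraries differed from each other by 0.17 on the log2 scale, against a smallest gap of 0.26 between a Fat and a Con library. The log2 fold change was 0.36 (standard error 0.14, 95% interval 0.04 to 0.68, limma adjusted p = 0.163), which was not called. On the recovered reads edgeR's quasi-likelihood test gave an adjusted p of 0.0981 and DESeq2 one of 0.000356 (these tools called 9.13% and 8.5% of all genes tested), so the call for Cd36 differed between tools. Cd36 took 0.929% and 1.03% of all reads in Con replicates 1 and 2 and 1.26% and 1.25% in Fat replicates 1 and 2. It ranked between 10 and 7 among all genes by CPM, and between 20 and 16 by TPM, which corrects for length. The other 8 receptors together held between 0.319% and 0.327% of the reads in each of the 4 libraries.

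Scarb1 encodes SR-BI, the HDL receptor that exchanges cholesteryl ester and free cholesterol with lipoproteins. Its values were 96.2 and 101.7 CPM in Con against 108.3 and 108.6 CPM in Fat. Although the groups did not overlap, the log2 fold change of 0.13 (standard error 0.06, 95% interval 0.00373 to 0.26) was not called (limma adjusted p = 0.195). In none of the alternatives tried did Scarb1 pass the test, and its log2 fold change lay between 0.09 and 0.17.

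Cd68, the lysosomal glycoprotein used as a histological marker of macrophages, was at 777.7 and 870.1 CPM in Con against 892.4 and 864.0 CPM in Fat. The groups overlapped, since Fat replicate 2 lay below Con replicate 2. The log2 fold change was 0.09 (95% interval -0.08 to 0.27, limma adjusted p = 0.498). Stab1, which clears modified LDL and the matrix protein SPARC, was at 561.0 and 494.0 CPM in Con against 541.8 and 595.9 CPM in Fat. Its groups overlapped as well, with a log2 fold change of 0.11 (95% interval -0.08 to 0.30, adjusted p = 0.468). Both intervals reach below 0, and their upper ends correspond to 1.20-fold for Cd68 and 1.23-fold for Stab1.

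Lrp1 is a large endocytic receptor for apolipoprotein E remnants, protease complexes and dying cells. It was at 766.8 and 851.4 CPM in Con against 865.6 and 894.6 CPM in Fat. The lowest Fat library was just above the highest Con library, by 0.02 on the log2 scale, while the Con replicates differed by 0.15. The log2 fold change was 0.12 (95% interval -0.05 to 0.29, limma adjusted p = 0.360). Vldlr, the receptor for triglyceride-rich very low density lipoprotein, was at 2.39 and 2.08 CPM in Con against 1.90 and 2.12 CPM in Fat. These overlapping values rest on 81, 78, 71 and 87 reads. Its log2 fold change of -0.14 had the widest interval of the panel (-0.56 to 0.27, adjusted p = 0.675).

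**Figure D3:**
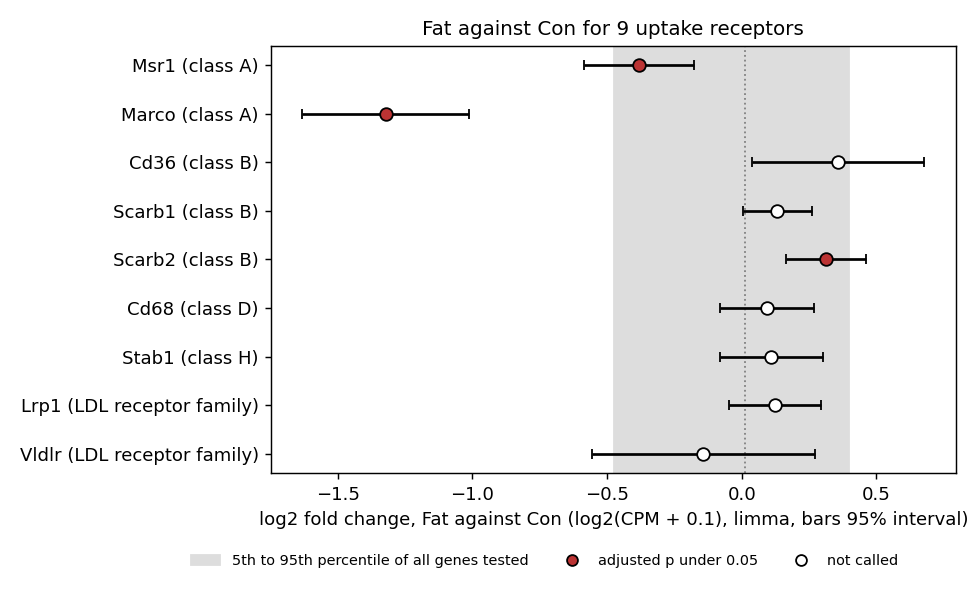
Log2 fold change of each receptor, Fat against Con (x axis, on log2(CPM + 0.1)), with its 95% interval from limma; filled points passed an adjusted p of 0.05, and the grey band spans the 5th to 95th percentile of all genes tested (-0.48 to 0.40). Marco at -1.32 lay outside the band, and the other 8 receptors lay within it.

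The size of these changes can be set against the whole table. The middle 90% of all genes tested had log2 fold changes between -0.48 and 0.40, and Marco alone of the 9 fell outside it. The median absolute log2 fold change of called genes was 0.49, so Msr1 and Scarb2 were smaller than the typical called gene. The genes whose values were most like those of Marco over the 4 libraries, by the root mean square difference of centred log2(CPM + 0.1), were P2ry12 (0.0533), Smpdl3b (0.0591) and C3 (0.0721). P2ry12 encodes an ADP receptor, Smpdl3b a lipid-modifying phosphodiesterase and C3 the central complement component. Their log2 fold changes were -1.27, -1.34 and -1.28, and values near that of Marco follow from choosing the genes by likeness.

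**Figure D4:**
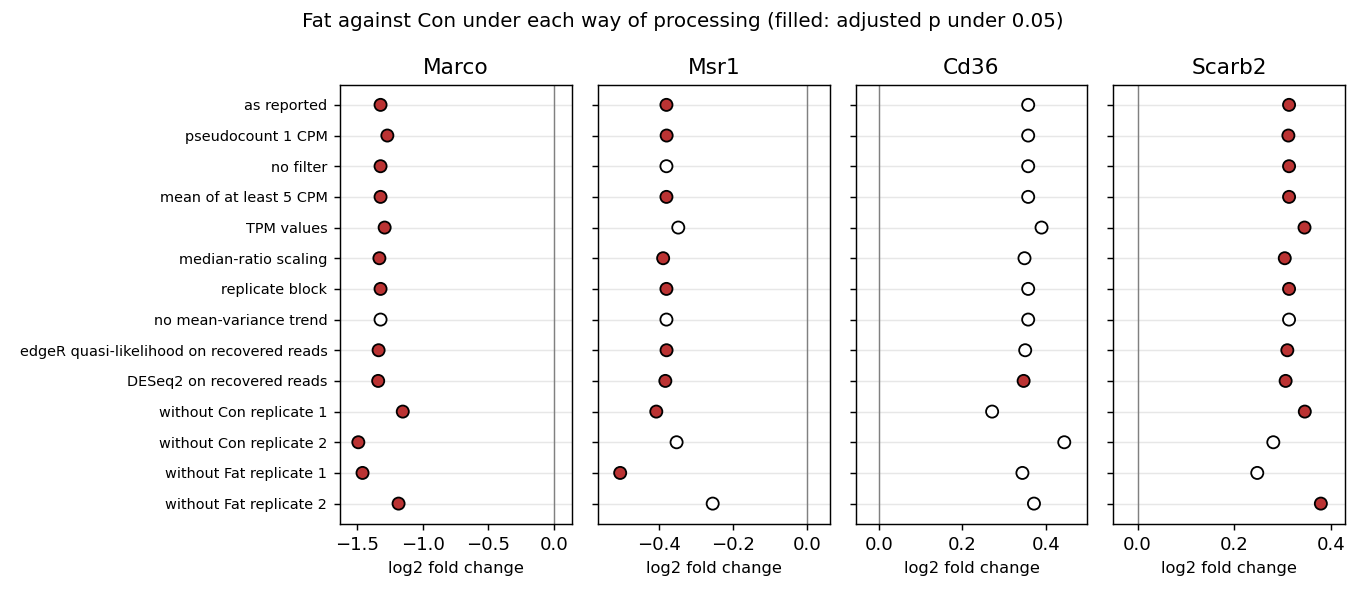
Log2 fold change of Marco, Msr1, Cd36 and Scarb2 (x axes) in the reported fit and under each of 13 alternatives (rows), with filled points where the adjusted p was under 0.05. The direction was the same in every row, Marco was called in all alternatives except that without the mean-variance trend, and Cd36 was called by DESeq2 alone.

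Other receptors and partners of the pathway came from 5 lists with 100 entries, of which 85 were tested. Of these, 3 were called higher in Fat and 5 lower. That is 9.41% of the tested entries, close to the 9% of all genes. Among 14 tested scavenger receptors outside the panel, 1 was called higher and 2 lower, with a median log2 fold change of -0.08. Colec12, a further collagen-stalked scavenger receptor, was at 94.4 and 89.8 CPM in Con against 111.1 and 110.3 CPM in Fat (log2 fold change 0.27, limma adjusted p = 0.0268). Its call was lost without Con replicate 2 (adjusted p = 0.0736), without Fat replicate 1 (0.0853) and without Fat replicate 2 (0.104). Cxcl16, a membrane chemokine that also binds oxidised lipid, was at 183.0 and 161.1 CPM in Con against 116.8 and 121.8 CPM in Fat (log2 fold change -0.53, adjusted p = 0.00741). Cd5l, a secreted scavenger protein of macrophages, was at 55.1 and 65.0 CPM in Con against 38.0 and 42.8 CPM in Fat (-0.57, adjusted p = 0.0144). The other 11 were not called, among them Mrc1, the mannose receptor (-0.22, adjusted p = 0.134), and Olr1, the oxidised LDL receptor LOX-1 (0.59, adjusted p = 0.0580). Scara5 and Megf10 were below the filter, with at most 1 and 7 reads in a library.

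In the LDL receptor and sortilin families, 1 of 14 tested genes was called higher and 0 lower, with a median log2 fold change of 0.02. The gene called was Sort1, encoding sortilin, which sorts lysosomal enzymes and apolipoprotein B, at 403.8 and 395.0 CPM in Con against 551.8 and 544.4 CPM in Fat (log2 fold change 0.46, limma adjusted p = 0.00517). At an unadjusted limma p under 0.05, 3 genes of the list were lower, and edgeR's quasi-likelihood test and DESeq2 each called 0 lower after adjustment. No background is given here for that unadjusted count, nor for those of the lists below.

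Of 14 tested ligands and extracellular partners, 1 was called higher and 0 lower, and the median was 0.06. At an unadjusted limma p under 0.05, 0 were lower, and edgeR and DESeq2 likewise called 0 lower. Sdc1, the heparan sulphate proteoglycan syndecan-1 that captures remnant particles, was at 330.4 and 347.6 CPM in Con against 474.5 and 438.9 CPM in Fat (log2 fold change 0.43, limma adjusted p = 0.00968). Apoe, the apolipoprotein bound by Lrp1 and Vldlr, had a log2 fold change of 0.07 (95% interval -0.28 to 0.41), and Lpl, the lipoprotein lipase that hydrolyses the triglyceride of those particles, one of 0.16 (95% interval -0.15 to 0.46). Among 21 tested adaptors, chaperones, turnover factors and lysosomal partners, 0 were called in either direction by limma, and the median was -0.09. At an unadjusted p under 0.05, 3 were higher and 6 lower, and after adjustment edgeR called 0 and DESeq2 1, which was lower. Without a background at that threshold, the unadjusted counts cannot be read as a trend of the list. In this list Npc1 and Npc2, which pass cholesterol out of the lysosome, stood at log2 fold changes of 0.19 and -0.30 without being called (adjusted p = 0.0765 and 0.0760).

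Of 22 tested transcription factors associated with these receptors, 3 were called lower and 0 higher, and the median was -0.01. Higher at an unadjusted limma p under 0.05 were 2, a count without a background here, and edgeR and DESeq2 called 0 higher after adjustment. Pparg, the fatty acid-activated nuclear receptor whose targets include Cd36, was at 32.8 and 37.7 CPM in Con against 22.9 and 20.9 CPM in Fat (log2 fold change -0.68, limma adjusted p = 0.00639). Klf4, a Krüppel-like factor of monocytes, was lower as well (-0.46, adjusted p = 0.0368). The call of Klf4 was lost without Con replicate 1 (0.0730), Con replicate 2 (0.0987) or Fat replicate 1 (0.119), with TPM values (0.0720) and without a filter (0.0518). The 19 factors that were not called included Spi1, which encodes PU.1 (0.01, 95% interval -0.18 to 0.20), and Nfe2l2, which encodes NRF2 (-0.17, adjusted p = 0.184).

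**Figure D5:**
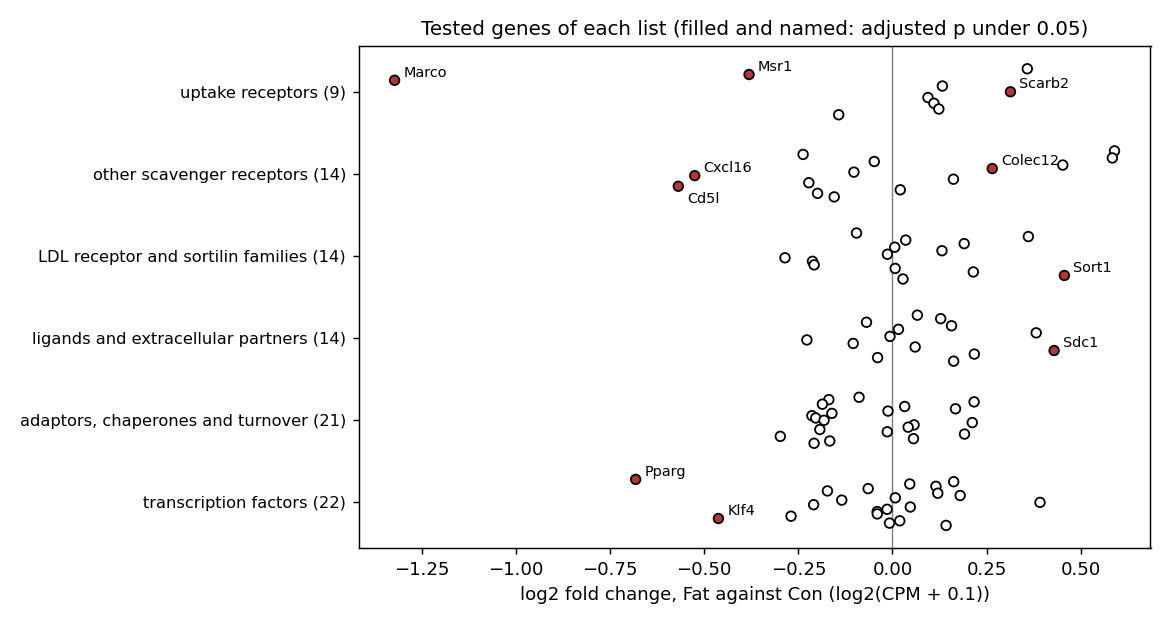
Log2 fold change of each tested gene, Fat against Con (x axis), for the 9 receptors and the 5 lists of related genes (rows, number tested in brackets), with called genes filled and named and 1 called transcription factor not drawn. The lists held 3 genes called higher and 5 called lower, and Marco at -1.32 was the farthest from 0.

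Markers of other cell types were measured beside the receptors. All 8 macrophage markers were present, with Adgre1 (listed as Emr1) at 1000 to 1216 CPM. Limma called 3 of the 8 lower in Fat (Fcgr1, Mertk and Aif1), against a background of 5%, and 0 higher (background 3.99%). At an unadjusted limma p under 0.05, 6 were lower and 0 higher, and no background is given here for that count. After adjustment edgeR called 3 of these markers lower and DESeq2 4, with 0 higher by either. The summed macrophage markers were at 35277 and 33124 CPM in Con against 27665 and 26105 CPM in Fat, mostly from the lysozyme gene Lyz2 (28720 and 26819 CPM in Con against 21516 and 20347 CPM in Fat, log2 fold change -0.41, adjusted p = 0.209). Itgam, the integrin CD11b, overlapped between the groups (log2 fold change 0.07). Of 11 adipocyte markers, 10 were higher in both Fat libraries than in both Con libraries. The 29.4% of all genes tested covers only genes that passed the filter, which most of these markers did not, so it is not a like background. Some of the 10 rest on few reads, such as Adrb3 with 0 and 0 in Con and 1 and 2 in Fat. Only Car3, Cidec and Plin4 passed the filter, through their Fat values alone. Limma and edgeR called all 3 higher, and DESeq2 called 1 higher. Genes that enter through their Fat values alone lean toward such calls, so these are not set against the background. The sum of the 11 markers was 0.206 and 0.240 CPM in Con replicates 1 and 2. It was 12.5 and 6.71 CPM in Fat replicates 1 and 2, mostly from Car3. Adipoq, Lep, Cidea, Adrb3 and Thrsp were at 0 reads in both Con libraries. Adipocytes also express Cd36, Scarb1 and Vldlr; the mean of Cd36 was 2734 CPM higher in Fat than in Con, and the mean of the summed adipocyte markers 9.39 CPM higher. The summed endothelial markers, 7 of 8 found, ran from 33.7 to 41.3 CPM, the 6 fibroblast markers from 512.5 to 656.4 CPM, the neutrophil markers, 5 of 6 found, from 280.0 to 321.8 CPM and the 5 lymphocyte markers from 15.5 to 20.3 CPM. Limma called 1 of 3 tested endothelial markers (Vwf) and 1 of 5 tested fibroblast markers (Dcn) lower in Fat, against a background of 5%. It called 0 of 5 tested neutrophil and 0 of 5 tested lymphocyte markers. DESeq2 called 1 endothelial marker lower and 0 fibroblast markers. The part of other cells, and of the shift in macrophage markers, in the receptor values was not tested.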

How the data were processed

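The authors sequenced poly(A) RNA as single reads of 75 bases and deposited CPM values (reads scaled by library size and by a further factor of 0.990 to 1.01, equal to edgeR's TMM factors) and TPM values (also scaled for gene length) for 17013 genes. The labels name GRCm39; the aligner, counter, annotation and use of strand are not given in the sources used here. Deposited CPM values were whole multiples of the smallest step in each library (100% within 0.01), which gave the reads, between 33573852 and 40785872 a library. The limit of 3 reads covers counting error only, since reads are not independent molecules, and the 95% intervals are limma's, from the spread between libraries.

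Groups came from the sample titles. Genes that reached 0.5 CPM in 2 or more libraries (12470) entered the comparison of Fat with Con in limma 3.58.1 (R 4.3.3). The model took log2(CPM + 0.1), used limma's trend of variance on mean and no block, and was two-sided with Benjamini-Hochberg adjustment. Fold changes are on that scale and understate those of low genes. The prior of that fit added 5.42 degrees of freedom to each gene. All p-values without another name are limma's. The members and lists were chosen with earlier results of these data known, so no p-value adjusted over a list alone is given. Named are all 9 members, called genes of each list (up to 4, by size of change, and any against the majority), markers at 0 or carrying a sum, and the 3 genes most like the member with the largest change. Spi1, Nfe2l2, Apoe, Lpl, Npc1, Npc2, Mrc1, Olr1, Scara5 and Megf10 were named beyond this after their values were seen. List counts include genes whose values are not reported here. Levels between genes were compared in TPM.

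The comparison was repeated without the variance trend, without a filter, with a minimum mean of 5 CPM, with a pseudocount of 1 CPM, on log2(TPM + 0.1), after median-ratio scaling, with replicate number entered as a block, with edgeR 4.0.16 (quasi-likelihood) and DESeq2 1.42.0 on recovered reads, and leaving out each library. The tests were checked on simulated counts in which the changed genes moved further than any receptor here. That check therefore does not cover changes as small as those of Msr1 and Scarb2. Shared stretches of 75 bases and overlapping exons were sought in GENCODE release M21, and promoters are from RefSeq GRCm38.p6, whose coordinates are of that build only. Python 3.11.15 and matplotlib 3.10.9 were used for tables and figures.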

Additional observations from a re-analysis of the deposited data

How the results depend on the processing

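The 9 receptors kept their direction in every alternative in which they could be fitted (13 each, 12 for Vldlr, which a mean of at least 5 CPM removes). Without the mean-variance trend 0 receptors were called in either direction (Marco -1.32, Msr1 -0.38, Scarb2 0.31; 2 higher and 2 lower at an unadjusted limma p under 0.05), and over all genes 19 were higher and 12 lower, against 498 and 624. The cause was not tested, and no background is given for counts at an unadjusted p, here or for the related lists below. Msr1 was also lost without a filter (-0.38) and with TPM values (-0.35), leaving 1 receptor called lower in each case. DESeq2 called 2 receptors higher, Cd36 (0.35) and Scarb2. With TPM values 366 genes in all were called lower and 53.7% of calls were higher, against 44.4%. With each library left out in turn, the log2 fold changes ran from -1.49 to -1.15 for Marco, -0.51 to -0.26 for Msr1, 0.25 to 0.38 for Scarb2 and 0.27 to 0.44 for Cd36, and the number of receptors called ran from 0 to 1 higher and from 1 to 2 lower. The counts over all genes then ran from 216 to 519 higher and from 313 to 612 lower, the lowest without Fat replicate 2.

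Deviations from the group means correlated at 0.20 between libraries of the same replicate number, but the labels tie the numbers to no batch or animal and there are only 2 of them, so they were not taken as pairs. Entering the replicate number as a block gave 1278 higher and 1242 lower calls over all genes. Among the receptors the block gave 1 higher and 2 lower, as without it. In the block fit, the other scavenger receptors had 2 called higher and 3 lower, the LDL receptor and sortilin families 2 higher and 3 lower, the ligands 3 higher, the adaptors 3 higher and 6 lower, and the transcription factors 2 higher and 5 lower.

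For the related lists, no mean-variance trend left 0 called among scavenger receptors, LDL receptor family genes, ligands and transcription factors (unadjusted p under 0.05 for 2 higher and 3 lower, 1 and 2, 1 and 0, and 0 and 4). TPM values left 1 transcription factor called lower, and DESeq2 called 1 adaptor lower. With each library left out, the calls ran from 0 to 1 higher and stayed at 2 lower for scavenger receptors, were 1 higher and 0 to 1 lower for the LDL receptor family, from 1 to 3 higher and 0 to 1 lower for ligands, from 0 to 1 higher and 0 to 2 lower for adaptors, and from 0 to 1 higher and 2 to 3 lower for transcription factors. With 2 libraries per medium, the changes of Lrp1, Cd68, Stab1 and Vldlr were smaller in size than the difference between the Con replicates.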
